A study of Sus scrofa with 2 samples.

Results

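CYTB, COX1, COX2, COX3, ATP6 and ATP8 are the protein genes that the mitochondrial genome contributes to respiratory complexes III and IV and to ATP synthase, complex V. Their rows were found by Ensembl pig gene identifier through a table of pig gene names, which gave 6 of 6 symbols on 1 row each, among 27987 entries in all. The rule names genes and uses no measured value, but it was set with earlier results of these data known. Messenger RNA was measured in longissimus dorsi, the long back muscle, of crossbred castrated male pigs (DLY, from Duroc boars and Yorkshire-Landrace sows). The H30 library came from pigs kept at a constant 30 °C for 21 days, and the CON library from pigs kept at a constant 22 °C over the same time. Each arm had 8 pigs and the study 16, of 79.0 ± 1.5 kg body weight and from 8 litters, and the labels used here give no age. Each arm gave 1 library, and the labels used here do not say whether it pooled RNA of several pigs. No difference below therefore has a replicate check or a significance test, and an effect of temperature cannot be told apart from differences between pigs, their handling or the libraries.

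The mitochondrial genome is a small circle that is copied into long RNAs, from which most messengers are cut out at the transfer RNAs lying between them. ATP8 and ATP6 overlap and stay together on a shared messenger. Electrons pass from complex III through cytochrome c to complex IV, where oxygen is reduced, and the protons pumped on the way drive ATP synthase. All these complexes also hold many subunits made from nuclear genes, so that each is built from the products of both genomes. Muscle fibres, and slow fibres above all, are rich in mitochondria.

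ACTA1, the skeletal muscle actin gene, was the highest entry of both libraries, as the muscle label has it. RPKM, the deposited unit, scales reads to gene length and to the size of the library. Levels of different genes can be compared only roughly. Overlapping genes, reads with several matches, poly(A) selection and the sizing of fragments can also affect them. Depth was recovered from the values as 22863584 reads for the H30 library and 23608242 for the CON library. The libraries held 13191 genes with a mean of at least 1 RPKM. On the log2(RPKM + 1) scale, used for every log2 ratio given here as H30 over CON, their median log2 ratio was 0.05, and 95% of them lay between -0.57 and 0.66.

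All 6 genes had the higher value in the H30 library as deposited, by 2.98% for ATP6 at the least and 23.2% for ATP8 at the most, but ATP6 lay slightly on the other side after centring on the median of all genes (log2 ratio -0.01). A log2 ratio at least as high as that of ATP6 was found in 51.2% of all genes tested, and 1 at least as high as that of ATP8 in 14.1%. None of the 6 was 1.5-fold apart, where 5.81% of all genes tested were in either direction, and none was 2-fold apart, where 1.21% were. The median log2 ratio of the 6 was 0.14, against 0.05 over all genes tested. A log2 ratio above 0 was found in 58.8% of all genes tested, so 6 of 6 is to be read against that share. In bulk muscle, more mitochondria-rich fibres and more mitochondrial RNA per fibre cannot be told apart.

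CYTB (ENSSSCG00000018094) encodes cytochrome b, which carries the quinone sites of complex III and is its only subunit made from this genome. It stood at 4113 RPKM in the H30 library, against 3816 RPKM in the CON library. The values correspond to at least 107213 reads in the H30 library and 102708 in the CON library, the smallest whole numbers of reads that give both values. The RPKM ratio was 1.08, with a 95% counting interval of 1.07 to 1.09. Such an interval covers counting error only, not differences between pigs, and reads copied by PCR with no molecular identifier need not come from separate molecules.

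COX1, COX2 and COX3 form the core of complex IV. COX1 (ENSSSCG00000018075), which holds the centre where oxygen is reduced, stood at 10465 RPKM in the H30 library, against 9861 RPKM in the CON library. Its RPKM ratio of 1.06 (counting interval 1.06 to 1.07) was the smallest of the complex IV genes, and it rests on the most reads of all 6 genes, at least 369652 in the H30 library and 359665 in the CON library. COX2 (ENSSSCG00000018078), which takes electrons from cytochrome c, stood at 9182 RPKM in the H30 library, against 8176 RPKM in the CON library, a ratio of 1.12 (1.11 to 1.14). COX2 here is the mitochondrial gene and not the prostaglandin synthase that shares the name. COX3 (ENSSSCG00000018082), a core subunit with no metal centre, stood at 11758 RPKM in the H30 library, against 10203 RPKM in the CON library, a ratio of 1.15 (1.14 to 1.16). By difference in level, COX3 differed most of the 6 genes, at 1555 RPKM more in the H30 library.

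ATP6 (ENSSSCG00000018081), the subunit that forms the proton path of ATP synthase, was the highest of the 6 in both libraries, at 11959 RPKM in the H30 library, against 11613 RPKM in the CON library. It also had the smallest RPKM ratio of the 6, 1.03 (1.02 to 1.04). ATP8 (ENSSSCG00000018080), a small subunit of the membrane part of the enzyme, was the lowest of the 6, at 1531 RPKM in the H30 library, against 1243 RPKM in the CON library. It had the largest RPKM ratio, 1.23 (1.16 to 1.31), on at least 2381 reads in the H30 library and 1996 in the CON library, the fewest of the 6. The extremes of the 6 genes thus both belonged to complex V, and they lie side by side on the genome. The labels do not say that the library kit marks strand, and the genes overlap, so how reads in the shared stretch were divided between them is unknown.

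**Figure D1:**
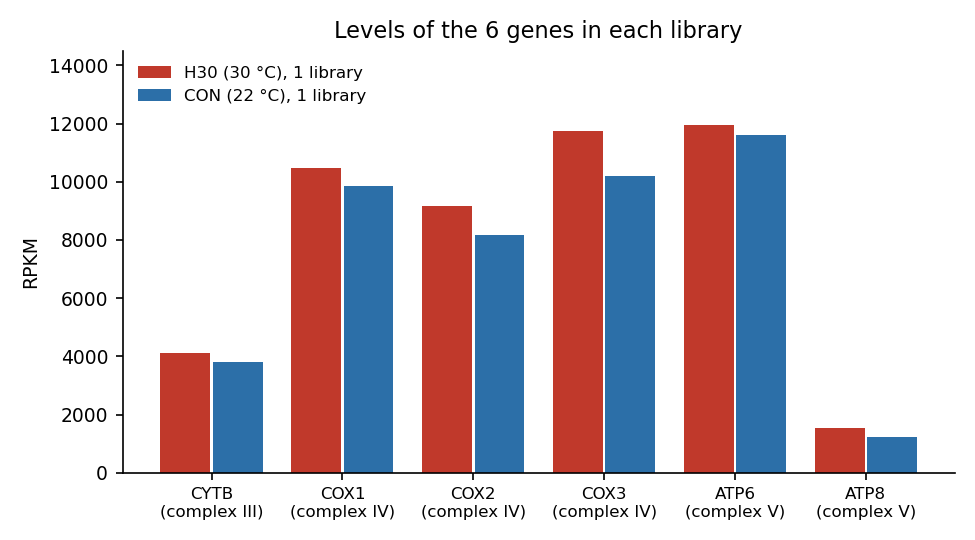
RPKM (vertical axis, linear from 0) of the 6 genes in the H30 library (red, left bar of each pair) and the CON library (blue, right bar), 1 library each and so no error bars. Every H30 bar is the higher of its pair as deposited, with ATP6 at 11959 RPKM in H30 and 11613 in CON highest and ATP8 at 1531 in H30 and 1243 in CON lowest. The ATP6 difference changes side after centring on the median of all genes.

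The order of levels was the same in both libraries: ATP6, COX3, COX1, COX2, CYTB and ATP8. ATP6 was 1.02 times COX3 in the H30 library and 1.14 times in the CON library, so these neighbours in the order were closest in the H30 library. COX3 was 1.12 times COX1 in the H30 library and 1.03 times in the CON library. COX1 was 1.14 times COX2 in the H30 library and 1.21 times in the CON library. CYTB stood well below these 4 genes, with COX2 at 2.23 times CYTB in the H30 library and 2.14 times in the CON library. With 1 library per arm, the spread of these ratios between pigs is not known, so it cannot be said which neighbours differ beyond it. Among all entries ATP6 ranked 8 in the H30 library and 10 in the CON library, and COX2 ranked 12 in the H30 library and 16 in the CON library. CYTB ranked 22 in the H30 library and 26 in the CON library, and ATP8 ranked 51 in the H30 library and 60 in the CON library. COX3 ranked 9 in the H30 library and 11 in the CON library, and COX1 ranked 11 in the H30 library and 12 in the CON library. Part of this rests on ENSSSCG00000025162, an entry the name table does not annotate, which ranked 24 in the H30 library and 8 in the CON library. Without it COX1 ranked 11 in both libraries, and ATP6 ranked 8 in the H30 library and 9 in the CON library.

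Summed, the 6 genes stood at 49009 RPKM in the H30 library, against 44912 RPKM in the CON library, a ratio of 1.09. They made up 7.01% of all summed RPKM in the H30 library and 6.28% in the CON library, a ratio of shares of 1.12. The denominators also differed: all entries summed to 698995 RPKM in the H30 library and 715684 RPKM in the CON library. The same unannotated entry, ENSSSCG00000025162, singled out after its values were seen, stood at 3547 RPKM in the H30 library and 13396 RPKM in the CON library. Without it the shares of the 6 genes were 7.05% in the H30 library and 6.40% in the CON library, a ratio of 1.10.

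The other protein genes of the same genome encode subunits of complex I, which feeds electrons into the chain. Of these 7 genes, 7 were above 0 on the log2 scale, where 58.8% of all genes tested were. Of the same 7, 3 lay below the median of all genes tested. The median log2 ratio of the 7 was 0.16, against 0.14 for the 6 genes of complexes III, IV and V. The sets overlapped over nearly their whole range, from 0.00 to 0.28 for complex I and from 0.04 to 0.30 for the 6, and the difference between them was not tested. ND2 stood at 2149 RPKM in H30 and 1774 in CON, and ND6 at 726 in H30 and 618 in CON. ND1 stood at 3296 RPKM in H30 and 2915 in CON, and ND5 at 1633 in H30 and 1461 in CON. These 4 genes had log2 ratios from 0.16 to 0.28, above that of CYTB (0.11), while the other 3 were nearly level. ND3 stood at 3301 RPKM in H30 and 3276 in CON, ND4 at 3296 in H30 and 3266 in CON, and ND4L at 1350 in H30 and 1347 in CON. Among the protein genes these 3 follow one another directly after COX3. The interval from counting error alone was above 1 for 6 of the 6 genes and for 5 of the 7 complex I genes, where 20.6% of all genes with an interval did. Genes with many reads have narrow intervals, so that share is no like measure for genes as high as these.

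**Figure D2:**
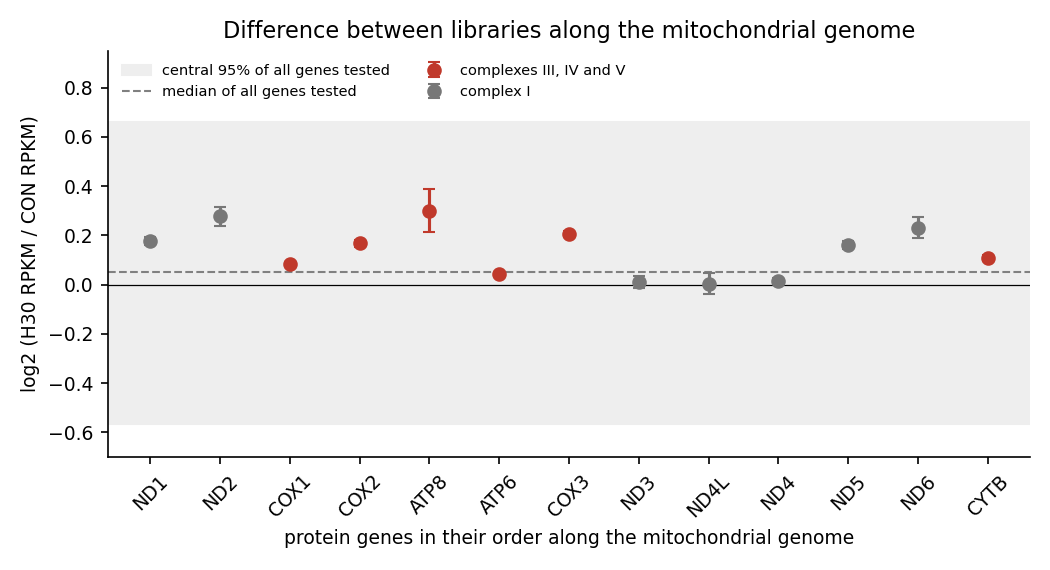
log2 ratio of H30 over CON RPKM (vertical axis) for the 13 protein genes in their order along the mitochondrial genome (horizontal axis, by rank). Points are genes of complexes III, IV and V (red) or complex I (grey), bars are 95% counting intervals, the dashed line is the median of all genes tested and the grey band their central 95% on the log2(RPKM + 1) scale. Every point lies inside the band, and ATP6 with ND3, ND4L and ND4 lie below the dashed line.

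A share of the summed RPKM of all 13 genes does not depend on how the libraries are scaled to each other. The 6 genes held 75.7% of that sum in the H30 library and 75.4% in the CON library. Within it, COX3 held 18.2% in the H30 library and 17.1% in the CON library, while ATP6 held 18.5% in the H30 library and 19.5% in the CON library. ATP8 held 2.36% in the H30 library and 2.09% in the CON library, the largest relative difference of the 6 (ratio of shares 1.13). COX2 had the higher share in the H30 library, 14.2% against 13.7% in the CON library. COX1 had the lower share there, 16.2% against 16.6% in the CON library. CYTB was nearly level, at 6.35% in the H30 library and 6.41% in the CON library.

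Pairs of genes set against each other are also free of the scaling. ATP8 stood at 0.128 of the ATP6 level in the H30 library and at 0.107 in the CON library, a 1.20-fold difference with a counting interval of 1.13 to 1.27. These genes overlap on a shared messenger, and how their reads were divided is unknown. Their ratio therefore cannot be read as a ratio of messenger amounts. COX3 over COX1 differed 1.09-fold (1.08 to 1.10) and COX2 over COX1 1.06-fold (1.05 to 1.07), both higher in the H30 library. CYTB over COX1 differed least of the ratios taken to COX1, 1.02-fold (1.01 to 1.03), at 0.393 in the H30 library and 0.387 in the CON library. The largest shift among the high genes was in ATP6 over COX3, at 1.02 in the H30 library and 1.14 in the CON library (0.894-fold, 0.884 to 0.903). These intervals again cover counting error only.

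**Figure D3:**
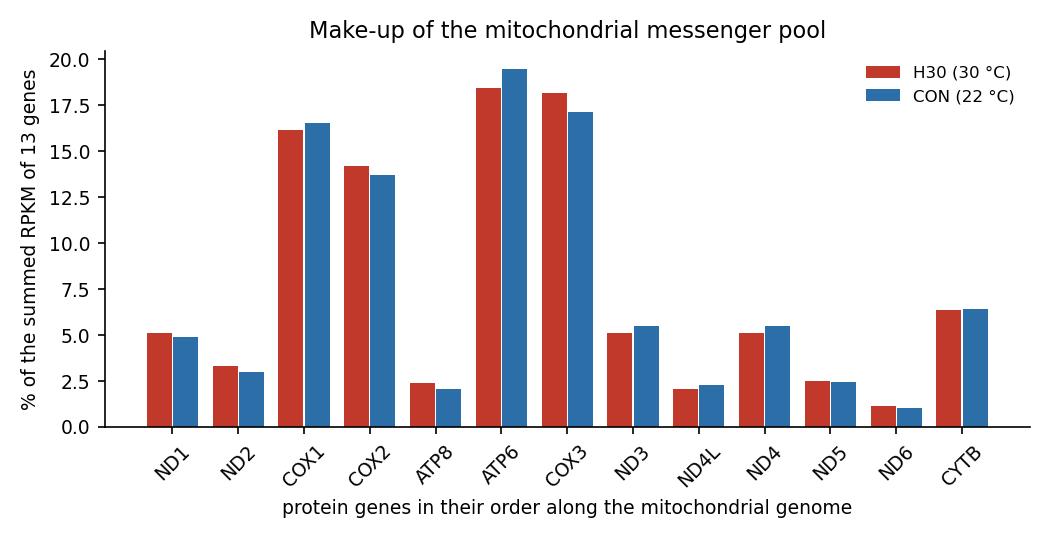
Share (vertical axis, percent) of each of the 13 protein genes in their summed RPKM, in the H30 library (red, left) and the CON library (blue, right), with genes in genome order on the horizontal axis. COX3 and ATP6 are nearly level in H30, at 18.2% and 18.5%, and further apart in CON, at 17.1% and 19.5%.

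The nuclear subunits of the same complexes lay on the other side in most cases. Of 44 listed genes 19 were matched to an entry and measured, and the other 25 are not analysed here. Of the 19, 16 had a log2 ratio below 0, where 41.2% of all genes tested did, and their median was -0.09. That median lay between -0.15 with trimmed mean rescaling and -0.04 when rescaled without the 13 mitochondrial genes. Of the 19, 18 lay below ATP6, the lowest of the 6 mitochondrial genes, while 51.2% of all genes tested lay at or above it. A scaling moves all such genes nearly alike, so the scalings could not check this order. The counting interval lay below 1 for 11 of the 19, where 10.6% of all genes with an interval did, and above 1 for 1. Most of the 19 have many reads and so narrow intervals, which makes that share no like measure for them. The 19 genes summed to 3820 RPKM in the H30 library and 4031 RPKM in the CON library, so the 6 mitochondrial genes together stood 12.8 times higher than these 19 in the H30 library and 11.1 times higher in the CON library. None of the 19 was 1.5-fold apart, and the difference between the sets has no replicate check.

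In complex III, 5 of 6 measured nuclear subunits were below 0 (median log2 ratio -0.10). UQCRC1, a core protein, stood at 146 RPKM in H30 and 173 in CON, and UQCRQ, a small subunit, at 194 in H30 and 211 in CON. UQCRC2, the other core protein, went the other way, at 39.7 RPKM in H30 and 32.6 in CON, a ratio of 1.22 (1.15 to 1.29) that was larger than that of CYTB. UQCRFS1, the iron-sulphur protein, stood at 39.5 RPKM in H30 and 40.7 in CON.

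In complex IV, 6 of 7 were below 0, from -0.02 for NDUFA4 to -0.15 for COX8A (median -0.04), and the median turned to 0.01 when the libraries were rescaled without the 10 highest genes or without the 13 mitochondrial genes. COX8A stood at 47.5 RPKM in H30 and 52.8 in CON, and COX4I1, the subunit at which ATP is known to inhibit the enzyme, at 162 in H30 and 173 in CON. COX5A, at 335 RPKM in H30 and 329 in CON, and NDUFA4, at 589 in H30 and 599 in CON, were the highest by log2 ratio. NDUFA4 carries the name of a complex I subunit but is found in complex IV.

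In complex V, 5 of 6 were below 0 (median -0.13). ATP5ME, a small membrane subunit, stood at 130 RPKM in H30 and 155 in CON. ATP5IF1, the protein that blocks ATP synthase from running backwards, stood at 212 RPKM in H30 and 240 in CON. ATP5IF1 regulates the enzyme and is not a structural subunit, but it is counted here and in the nuclear set above. ATP5PO, part of the stalk, stood at 278 RPKM in H30 and 273 in CON, and ATP5F1A, the alpha subunit gene, at 291 in H30 and 309 in CON. ATP5F1B, the beta subunit gene, was not matched and is not analysed here.

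**Figure D4:**
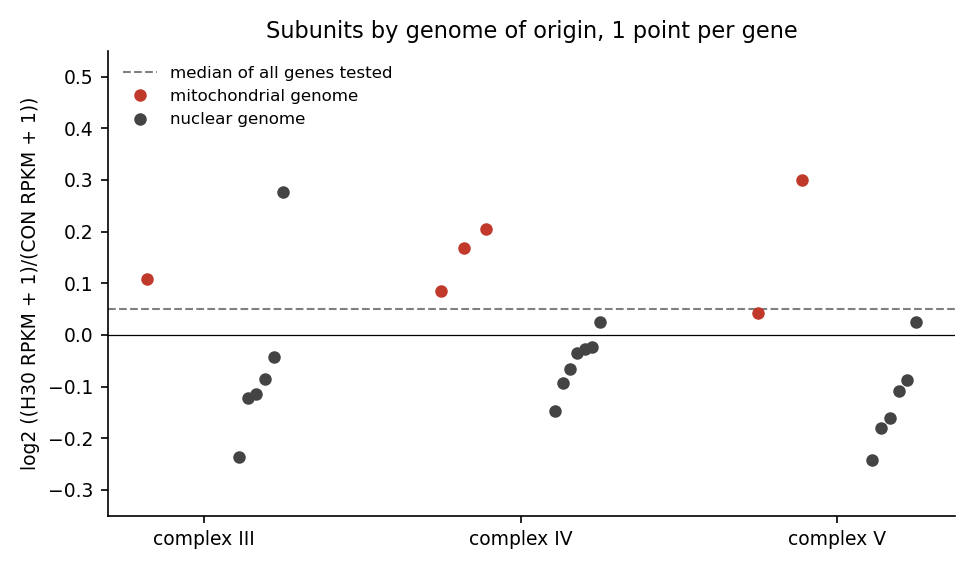
log2 ratio of H30 over CON on the RPKM + 1 scale (vertical axis) for subunits of complexes III, IV and V (horizontal axis), with 1 point per gene for the mitochondrial genome (red, left) and the measured nuclear genes (dark grey, right). UQCRC2 of complex III is the 1 nuclear point above the dashed median of all genes tested, and ATP6 of complex V the 1 red point below it.

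Genes that build these complexes were mixed. Of 39 listed assembly factors for complexes III, IV and V, 12 were measured, 7 of them above 0, about the 58.8% of all genes tested. Their median log2 ratio was 0.12, which became 0.03 among genes with a mean of at least 5 RPKM and 0.07 after centring. COX16, needed for COX2 to mature, stood at 6.08 RPKM in H30 and 4.05 in CON, and TMEM70, a factor for ATP synthase, at 12.5 in H30 and 8.83 in CON. TTC19, a complex III factor, stood at 3.31 RPKM in H30 and 4.39 in CON, and UQCC2, which helps CYTB to be made, at 39.3 in H30 and 46.5 in CON.

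Genes that copy and handle mitochondrial RNA had 17 of 23 measured members above 0, where 58.8% of all genes tested were, and a median log2 ratio of 0.08, against 0.05 over all genes tested. The median became 0.03 after centring and 0.02 among genes with a mean of at least 5 RPKM. TEFM, the elongation factor of mitochondrial transcription, stood at 5.39 RPKM in H30 and 3.65 in CON (log2 ratio 0.46), and TRMT10C, a subunit of the enzyme that cuts transfer RNAs out of the long transcripts, at 4.98 in H30 and 3.46 in CON (0.42). HSD17B10, another subunit of that enzyme, was the lowest, at 34.3 RPKM in H30 and 44.5 in CON, and REXO2, a nuclease of short RNAs, came next at 16.2 in H30 and 19.8 in CON. The polymerase POLRMT and the DNA packaging factor TFAM were not matched and are not analysed here.

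Genes of mitochondrial DNA upkeep had a median of 0.04 over 11 measured members, which turned to -0.01 after centring on the median of all genes or with trimmed mean rescaling, and to -0.02 among genes with a mean of at least 5 RPKM. MGME1, a nuclease of that DNA, stood at 2.87 RPKM in H30 and 2.23 in CON, and DGUOK, a kinase for its building blocks, at 4.22 in H30 and 3.63 in CON. The ligase LIG3 stood at 4.63 RPKM in H30 and 5.69 in CON, and MFN2, a mitochondrial fusion gene, at 37.3 in H30 and 40.5 in CON. Regulators of mitochondrial biogenesis had a median of 0.05 over 10 measured members, which turned to -0.04 among genes with a mean of at least 5 RPKM and to -0.0012 with trimmed mean rescaling. The counting interval lay above 1 for 0 of the 10, where 20.6% of all genes with an interval did. It lay below 1 for 0, where 10.6% did. Intervals from minimum reads can be too wide, so this count does not show that the 10 were level. They ran from PPARD, at 5.76 RPKM in H30 and 6.38 in CON, and GABPB1, at 1.08 in H30 and 1.19 in CON, to PRKAA1, at 2.12 in H30 and 1.85 in CON, and SIRT1, at 2.33 in H30 and 1.94 in CON. PPARGC1A was not matched and is not analysed here. CYCS, cytochrome c, which links complexes III and IV, stood at 152 RPKM in H30 and 170 in CON and was the lowest of its list of 11, which also holds the coenzyme Q genes. The median of that list was 0.04, which turned to -0.01 after centring and to -0.02 with trimmed mean rescaling. COQ4 came next at 5.66 RPKM in H30 and 6.33 in CON, and PDSS1, at 1.22 in H30 and 0.909 in CON, and COQ3, at 15.3 in H30 and 13.6 in CON, were the highest.

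Markers of slow fibres were also higher in the H30 library. Of 10 listed slow markers 4 were measured, and 4 of these 4 had a counting interval above 1, where 20.6% of all genes with an interval did, though these genes have many reads and so narrow intervals. They had a median log2 ratio of 0.22 and a sum of 6385 RPKM in the H30 library, against 5403 RPKM in the CON library. MYL3, a slow myosin light chain, stood at 802 RPKM in H30 and 591 in CON, and TNNC1, slow troponin C, at 2793 in H30 and 2298 in CON. TNNT1 stood at 1655 RPKM in H30 and 1482 in CON, and TNNI1 at 1136 in H30 and 1033 in CON. Fast markers had 4 of 6 measured members below 0, where 41.2% of all genes tested were, with a median of -0.09 that lay between -0.15 with trimmed mean rescaling and -0.05 when rescaled without the 13 mitochondrial genes. They summed to 67722 RPKM in the H30 library, against 70688 RPKM in the CON library. PVALB stood at 93.7 RPKM in H30 and 226 in CON, and ATP2A1 at 3991 in H30 and 4367 in CON, while CASQ1, at 3080 in H30 and 2934 in CON, and MYL1, at 17873 in H30 and 17607 in CON, lay on the other side. MYH7, MYH1, MYH2 and MYH4 were not matched and are not analysed here. The part of fibre make-up in the values of the 6 genes was not tested.

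Other cell types were lower in level than either fibre type. Fibroblast markers summed to 831 RPKM in H30 and 914 in CON (4 of 6 below 0, where 41.2% of all genes tested were). Endothelial markers summed to 138 in H30 and 121 in CON (2 of 3 above 0), and macrophage markers to 28.8 in H30 and 26.2 in CON (2 of 4 above 0). Of all genes tested 58.8% were above 0. Among macrophage markers LYZ stood at 3.29 RPKM in H30 and 1.09 in CON, and CD68 at 5.36 in H30 and 3.61 in CON. C1QA, which makes up most of that sum, stood at 17.7 in H30 and 19.1 in CON, and CSF1R at 2.41 in H30 and 2.42 in CON. Adipocyte markers summed to 49.8 RPKM in H30 and 51.3 in CON, with a median log2 ratio of -0.53 over 3 genes. Of these CIDEC stood at 3.48 RPKM in H30 and 7.56 in CON and PLIN1 at 6.64 in H30 and 10.1 in CON, while PLIN4, which makes up most of the sum, stood at 39.6 in H30 and 33.7 in CON. Of red blood cell markers HBB alone passed the minimum level, at 112 RPKM in H30 and 89.0 in CON, while ALAS2 stood at 1.43 in H30 and 0.432 in CON and SLC4A1 was listed at 0 in H30 and at 0.019 RPKM in CON. The 6 mitochondrial genes summed to 49009 RPKM in H30 and 44912 in CON, and the part of these cell types in their values was not tested.

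The 5 named genes outside the mitochondrial genome with values most like the medians of the 6 in both libraries (9824 RPKM in H30, 9018 in CON) were TPM2, ENO3, SLN, MYH8 and PYGM. Likeness was the summed absolute difference of log2(RPKM + 1) over 2 libraries, which weighs level far more than the difference between them. Their log2 ratios ran from -0.23 for MYH8 to 0.16 for SLN, with TPM2, the nearest, at 8359 RPKM in H30 and 8288 in CON.

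The scaling between the libraries set how far the 6 genes stood from 0. Their median log2 ratio was 0.08 with trimmed mean rescaling and 0.09 after centring. It was 0.18 with the 10 highest genes left out of the scaling and 0.19 with the 13 mitochondrial genes left out. ATP6 was at -0.02 with trimmed mean rescaling and at -0.01 after centring, and the other 5 genes stayed above 0 under each scaling.

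**Figure D5:**
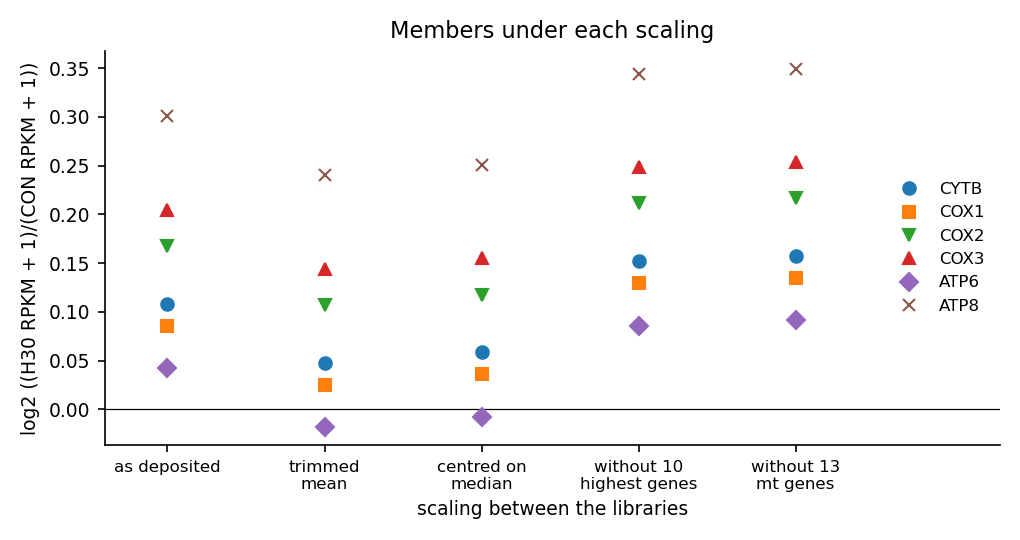
log2 ratio of H30 over CON on the RPKM + 1 scale (vertical axis) of the 6 genes under 5 scalings of the libraries (horizontal axis), as deposited first. Each scaling moves all 6 points nearly alike, and ATP6 falls below 0 with the trimmed mean (-0.02) and with centring (-0.01).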

How the data were processed

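The deposited table holds RPKM values that the authors computed, 1 for each gene in each library. Per the labels' protocols, poly(A) RNA was purified from 3 µg of total RNA, copied from random primers, sized to about 200 bp and amplified in 10 cycles of PCR. The submitters' processing notes name the Sscrofa10.2 build and the tools Cufflinks 1.3.0, TopHat 1.4.0 and Bowtie, with neither role nor order. The read counter, the gene lengths and the treatment of reads with several matches are not given in the sources used here, so nuclear copies of mitochondrial sequence could share reads with the 6 genes. Symbols came from a table of pig gene names, which matched 11374 entries, and the gene order from RefSeq's Sscrofa11.1 table. Start positions in the RefSeq table set that order, and no other coordinates and no sequences were used here.

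Of 6373 low genes (mean under 1 RPKM, present in both libraries), 95.8% fitted whole reads up to 60 in each library with 1 factor between the library totals (1.03, CON over H30), against 0.031% with a factor 1% off. The totals taken are those that made gene lengths whole within 0.01 bp in 85.1% of 3054 genes. The smallest length that gave whole reads in both libraries within 0.001 gave the minimum reads. Clopper-Pearson 95% intervals used these reads, and for pairs of genes a normal interval on the log scale. More reads than the minimum would make both kinds narrower. The recovery of totals and fold counts was tested on simulated data. For lengths that test asked only whether the length found divides the true length, so lengths and reads can be too small. The intervals, pair ratios and rescalings were not tested.

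Log2 ratios used a pseudocount of 1 over genes with a mean of at least 1 RPKM. With 1 library per arm no test was made. The 6 genes and the 15 further lists (218 genes, 120 matched by symbol) were chosen with earlier results of these data known. Named genes are the 6, the 7 complex I genes, the 2 highest and 2 lowest of each list and the 5 nearest in level. In lists of cell types other than fibres, only red blood cell, adipocyte and macrophage genes are named. Python 3.11.15, numpy 2.4.6, pandas 2.3.3 and scipy 1.17.1 were used.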

Additional observations from a re-analysis of the deposited data

How the results depend on the processing

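No paired analysis was possible because each arm has 1 library, and no library could be left out. The counts of genes at least 2-fold higher and lower, 83 and 77, turned into 290 and 193 at pseudocount 0.1, into 7 and 20 at pseudocount 5, and into 17 and 26 among genes with a mean of at least 5 RPKM. The scalings moved the split to 68 and 86 (centred), 69 and 83 (trimmed mean), 97 and 72 (without the 10 highest genes) and 99 and 72 (without the 13 mitochondrial genes). The median log2 ratio of the 6 genes, 0.138, became 0.088, 0.077, 0.181 and 0.187 under these 4 scalings in the same order, and the cause was not tested. ATP6 was the 1 gene of the 6 below the median of all genes. It was above it, leaving 0 below, with a pseudocount of 5, with no filter, with a mean of at least 5 RPKM, and when rescaled without the 10 highest genes or the 13 mitochondrial genes. The share of the 6 genes in summed RPKM was 10.8% in H30 and 9.82% in CON (ratio 1.10) without the 10 highest other genes, and 7.33% in H30 and 6.55% in CON over Ensembl entries. Without ENSSSCG00000025162, an alternative chosen after seeing the data, it was 6.40% in CON (ratio 1.10). Each relative share of a gene kept its direction when set against the 6 genes in place of the 13. The nuclear subunits had 16 of 19 below 0 as deposited, 18 centred or with the trimmed mean, 13 without the 10 highest genes and 12 without the 13 mitochondrial genes, with medians of -0.09, -0.14, -0.15, -0.04 and -0.04 for these 5 settings. Among the other lists, the medians for biogenesis regulators, cytochrome c with coenzyme Q, mitochondrial DNA upkeep and nuclear complex IV changed sign as given above, and that of macrophage markers, 0.23, turned to -0.10 among genes with a mean of at least 5 RPKM. The single library per arm limits all these values. Counting error is small beside the level for genes with as many reads as the 6, but it may be larger for other genes named. TRMT10C rests on at least 71 reads in H30 and 51 in CON, and its interval runs from 0.99 to 2.10. For DGUOK (at least 141 reads in H30 and 125 in CON) it runs from 0.91 to 1.49. For REXO2 (at least 145 in H30 and 183 in CON) it runs from 0.65 to 1.02. Each of these holds 1. The reads are minimum numbers, and more reads would give narrower intervals. Whether counting error alone could give such differences is therefore not known.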
